A study of Mus musculus with 4 samples.

Results

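Of the CTCF regions mapped in mouse cardiac myocytes, 435 of 20043 in the control list and 328 of 16128 in the list labelled CTCF knockout lay where the ends of neighbouring protein-coding genes meet. A region was included when its summit, the point of highest signal, lay within 1 kb of the start or end of at least 2 different protein-coding genes, by the gene spans of the mouse build mm10 (GRCm38). These regions made up 2.17% of the control list and 2.03% of the other list. The cells were cardiac muscle cells taken from left ventricles (strain C57BL/6), and ChIP-seq, which sequences the DNA pulled down with an antibody, located CTCF on their chromatin. One library came from 3 pooled control hearts and the other from 3 pooled hearts with the genotype given as CTCF_knockout. The labels give no age and do not say how or in which cells the gene was deleted. Peak lists of CTCF binding hold no expression values, so the myocyte identity of the cells could not be checked against marker genes.

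CTCF is a zinc-finger protein that binds a long DNA motif. It holds the bases of chromatin loops in place together with cohesin, the ring-shaped complex that extrudes the loops. Neighbouring genes can share one short stretch of DNA in several ways, described here for genes that do not overlap. In a head-to-head pair the transcription start sites face away from each other and often share a promoter. In a tail-to-tail pair the genes converge on their ends, and in a head-to-tail arrangement one gene ends where the next begins.

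Stretches of DNA under the summits are shown first, because they allow a comparison of regions called in both libraries with regions called in the control alone. Each stretch lies inside the 300-base promoter window of one of the genes (250 bases before to 50 after the start; RefSeq, GRCm38.p6) and outside every gene span of the table, and is given 5′ to 3′ on the plus strand. Capitals mark matches to a CTCF-like motif, which reads CC, any 3 bases, AG, any 2 bases and GGC, on either strand. Of the 40 regions with such a stretch of at least 40 bases, the 5 with the highest control fold enrichment called in both libraries come first, followed by the 5 highest called in the control only.
Adprhl2/Tekt2, chr4:126321734-126321854: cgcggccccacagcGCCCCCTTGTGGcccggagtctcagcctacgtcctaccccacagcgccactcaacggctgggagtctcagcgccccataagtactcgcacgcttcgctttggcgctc
Exosc8/Alg5, chr3:54735365-54735451: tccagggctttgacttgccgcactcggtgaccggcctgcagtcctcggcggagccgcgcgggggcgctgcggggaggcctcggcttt
Uchl5/Ro60, chr1:143777127-143777233: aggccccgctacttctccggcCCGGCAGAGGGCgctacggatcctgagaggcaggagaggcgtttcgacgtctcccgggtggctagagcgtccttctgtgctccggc
Lsm11/Thg1l, chr11:45944997-45945089: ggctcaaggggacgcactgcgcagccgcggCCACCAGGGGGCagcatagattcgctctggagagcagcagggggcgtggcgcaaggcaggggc
Ubqln4/Lamtor2, chr3:88553569-88553676: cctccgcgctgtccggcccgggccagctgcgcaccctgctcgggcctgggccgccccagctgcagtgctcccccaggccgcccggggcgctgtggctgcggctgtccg
Pcid2/Cul4a, chr8:13105406-13105526: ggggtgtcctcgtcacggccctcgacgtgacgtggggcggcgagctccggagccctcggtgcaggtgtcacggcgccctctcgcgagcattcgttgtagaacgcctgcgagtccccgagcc
Mrps5/Zfp661, chr2:127587336-127587425: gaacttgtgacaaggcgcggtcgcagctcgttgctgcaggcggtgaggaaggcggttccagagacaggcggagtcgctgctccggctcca
Rhot2/Wdr90, chr17:25844558-25844678: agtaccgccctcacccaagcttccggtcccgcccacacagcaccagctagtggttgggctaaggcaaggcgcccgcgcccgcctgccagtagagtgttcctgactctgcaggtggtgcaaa
Ndufa13/Yjefn3, chr8:69894032-69894152: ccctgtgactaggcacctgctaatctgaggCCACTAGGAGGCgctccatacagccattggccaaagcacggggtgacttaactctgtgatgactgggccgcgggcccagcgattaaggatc
Apoo/Fam90a1b, chrX:94366910-94367009: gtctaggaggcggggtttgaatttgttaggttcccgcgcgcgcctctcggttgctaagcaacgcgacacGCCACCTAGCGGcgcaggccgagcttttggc

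The stretches between Adprhl2 and Tekt2, Uchl5 and Ro60, and Lsm11 and Thg1l held a match, and those between Exosc8 and Alg5 and between Ubqln4 and Lamtor2 did not. Among the control-only regions, those at Ndufa13/Yjefn3 and Apoo/Fam90a1b held a match, and those at Pcid2/Cul4a, Mrps5/Zfp661 and Rhot2/Wdr90 held none in the stretch shown. Over all 40 stretches the motif was present in 13 of 32 called in both libraries and in 2 of 8 called in the control only. Whole promoter windows allowed the comparison over more regions. Of the 435 control regions, 124 had their summit inside a promoter window of a protein-coding gene, and 45 of these windows (36.3%, Wilson 95% interval 28.4 to 45.05) contained the motif. It was present in 39 of 84 windows of regions called in both libraries (46.4%, interval 36.2 to 57.02) and in 6 of 40 windows of regions called in the control only (15.0%, interval 7.06 to 29.1). Of all 21263 promoter windows of protein-coding genes, 9.88% contained it. For regions at a single gene end the shares were 44.3% (229 of 517) and 25.6% (52 of 203). Within 50 bp of the summit the motif was found for 33 of the 84 and 3 of the 40. Over whole windows the share in regions called in both libraries exceeded that in control-only regions by 31.4 points (Newcombe 95% interval 14.005 to 44.7), and 16.1 points (-0.0066 to 28.7) with a stricter form of the motif (CC, any base, C, any base, AG, any 2 bases and GGC). The share with the motif was also higher in strong regions. It was 59.5% (25 of 42) at a control fold enrichment of at least 10 and 24.4% (20 of 82) below that, so strength and the motif moved together, and the part of strength in the difference was not tested. The median GC content was 65.3% in windows of regions called in both libraries and 65.5% in the others, against 56.3% over all windows.

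**Figure D1:**
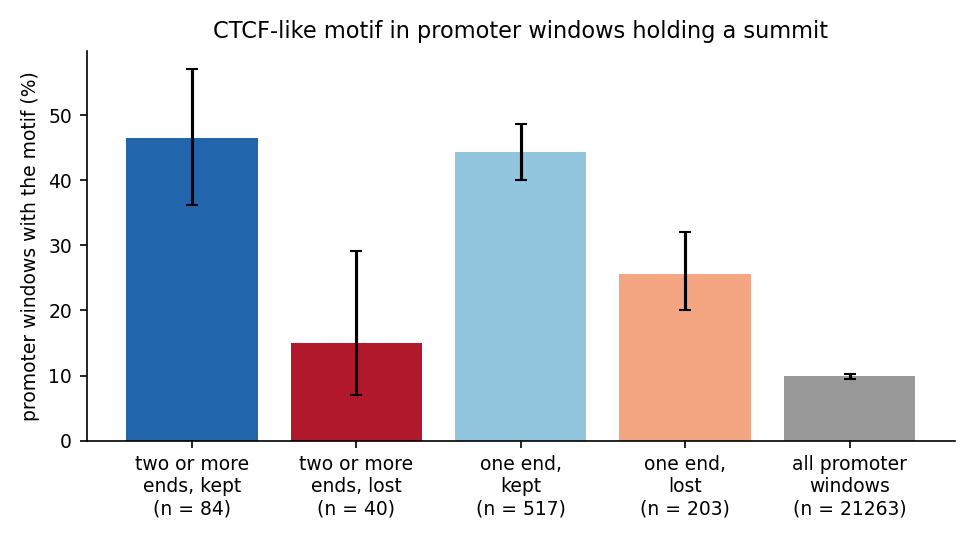
Percent of 300-base promoter windows holding a summit that contain the motif on either strand, with Wilson 95% intervals, for control regions where gene ends meet and at one gene end, called in both libraries (kept) or in the control only (lost). The bar for kept regions where ends meet stands at 46.4% and the bar for lost ones at 15.0%, with all promoter windows at 9.88%.

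Each library was made once, so there was no replicate and no test between genotypes was possible. All intervals cover counting error only, and every difference compares 2 libraries. Each region of a list carries the authors' fold enrichment over the local background of its own library. Fold enrichments of the lists are given side by side below, with no direction read from them. The lists give no sequencing depth. From the fold enrichment and the p-value a whole number of stacked reads at the summit (the pileup) could be recovered for 100% of regions. It ran from 7 to 244 reads in the control regions where gene ends meet and from 6 to 260 in those of the other list. Both maxima lay on the mitochondrial chromosome. The region with the highest fold enrichment had 74 reads in the control and 57 in the other library. The lowest local background was 1.01 reads in the control and 0.851 in the library labelled knockout, a ratio of 0.846. The number of regions where gene ends meet was 0.754 of the control number in the second library, and that of all regions was 0.805.

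Positions where gene ends meet were rich in CTCF regions. Nuclear positions within 1 kb of the ends of at least 2 genes add up to 5.82 Mb. They held 73.4 control regions per Mb (exact Poisson 95% interval 66.6 to 80.7), compared with 42.2 per Mb within 1 kb of the end of a single gene (40.7 to 43.7) and 6.25 per Mb elsewhere. In the library labelled knockout the densities were 54.7, 29.99 and 5.15 per Mb. The density where ends meet was therefore 11.7 times that away from gene ends in the control and 10.6 times in the other library.

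Density differed with the arrangement of the genes. Strand could be matched for 79.9% of the protein-coding genes, and the nearest pair of ends was classified for 309 control regions, leaving 126 without a class. Classes rest only on whether each nearest end is a start or an end, so they include overlapping genes and strands unlike the layouts above. Spans overlapped in part at 56 head-to-head, 15 head-to-tail and 23 tail-to-tail regions. Of the 149 head-to-head pairs 145 lay on opposite strands. Head-to-head positions held 149 control regions, or 88.8 per Mb (interval 75.1 to 104.3), and head-to-tail positions 109 regions, or 101.6 per Mb (83.5 to 122.6). Tail-to-tail positions held 51 regions, or 36.5 per Mb (27.2 to 48.02). At single gene starts the density was 63.5 per Mb and at single gene ends 18.8 per Mb, so positions with starts were denser whether 1 gene or 2 genes met there. The library labelled knockout held 101 head-to-head and 76 head-to-tail regions, which is 0.678 and 0.697 of the control numbers. It held 49 tail-to-tail regions, 0.961 of the control number. The same ratio was 0.666 at single gene starts, 0.851 at single gene ends and 0.823 away from gene ends.

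**Figure D2:**
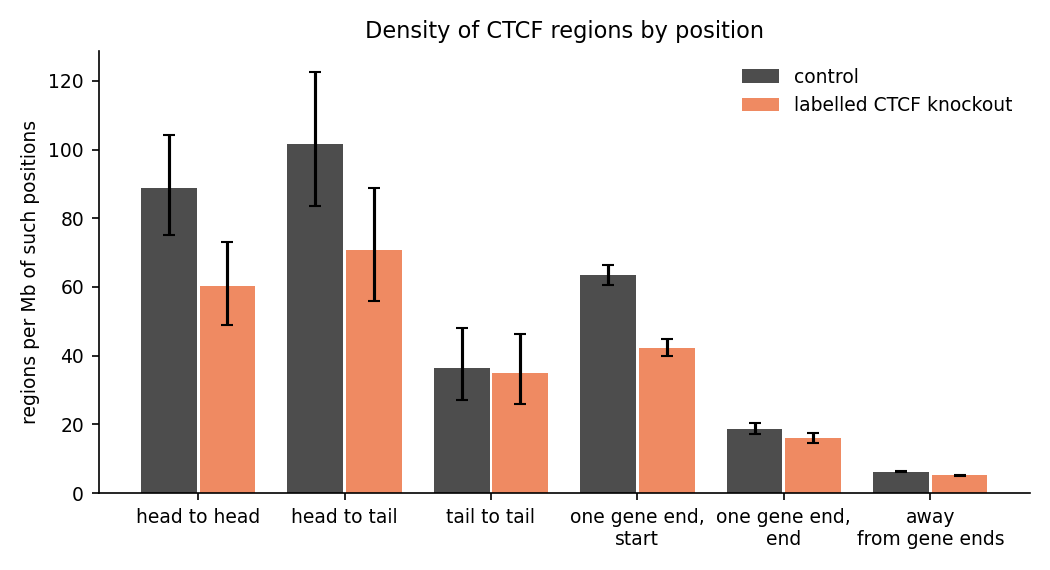
CTCF regions per Mb of positions of each kind (vertical axis) in the control list (grey) and the list labelled CTCF knockout (orange), with exact Poisson 95% intervals. Head-to-head positions stand at 88.8 and 60.2 per Mb, and tail-to-tail positions at 36.5 and 35.1 per Mb.

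Distances to the gene ends were limited by the rule of inclusion, which required each summit to lie within 1 kb of them. They describe the regions and do not show that summits sat closer to gene ends than the rule requires. The distances were not compared with those of regions at a single gene end. The median distance from a summit to the nearest end was 200 bp and to the second gene 489 bp, with a median of 219 bp between the ends. In head-to-head pairs the starts were a median of 137 bp apart, and 34.9% of summits lay within 100 bp of a start. In tail-to-tail pairs 11.8% did (6 of 51). Of the 435 summits, 98 lay outside both genes, 295 inside one of them and 42 inside both, where the spans overlapped. A long non-coding RNA gene also had its start or end within 1 kb of 16 regions (3.68%), compared with 11.0% of regions at a single protein-coding gene end. In 399 distinct sets of neighbouring genes, 35 sets held more than 1 control region, and these accounted for 71 regions. Chromosome 11 held the most (47), followed by chromosomes 7 (40) and 8 (36), whereas 3 lay on the X chromosome and none on Y. As a share of the chromosome's control regions they ranged over the autosomes from 0.868% on chromosome 18 to 3.42% on chromosome 19.

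Overlap of the lists showed how many of these regions were called in both libraries. A control region that overlapped a region of the other library by at least 1 bp is called kept, and one that did not is called lost. Of the 435 control regions where gene ends meet, 287 were kept (65.98%, interval 61.4 to 70.3), against 69.0% of all control regions. The share was 63.3% for regions at a single gene end (1960 of 3097) and 70.2% away from gene ends (11585 of 16511). The difference from single gene ends was 2.69 percentage points (Newcombe 95% interval -2.18 to 7.31) and the difference from regions away from gene ends was -4.19 points (-8.82 to 0.164). Both intervals include 0. For the first difference the interval lay above 0 with lists of equal length (5.26 points, 0.38015 to 9.50) and with a −log10 q of at least 5 required of the control list alone (5.44 points, 0.631 to 9.50). For the second it lay below 0 without the mitochondrial chromosome (-4.82 points, -9.51 to -0.409), with gene spans that do not overlap (-5.93, -11.7 to -0.568), with reciprocal overlap of at least 50% (-5.05, -9.80 to -0.399) and with summits within 100 bp (-5.15, -9.86 to -0.631). The second difference was 0.624 points when both lists were limited to a −log10 q of at least 5 and 2.43 points with lists of equal length, so its direction turned with the threshold. Of the kept regions, 280 overlapped a region that itself lay where gene ends meet in the other list.

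Kept regions were stronger than lost ones. The kept regions had a median control fold enrichment of 8.79 and a median pileup of 20 reads, and the lost ones 4.99 and 10 reads. No lost region exceeded a fold enrichment of 11.2, and 89 kept regions lay above that value. Among the strongest 10% of control fold enrichments all 76 regions were kept, and in the weakest bin 15 of 46 were (32.6%, interval 20.9 to 47.03). Other control regions of the same bins were kept in 98.97% and 37.6% of cases. If regions where gene ends meet had been kept as often as other control regions of the same fold enrichment, 68.5% would have been kept.

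**Figure D3:**
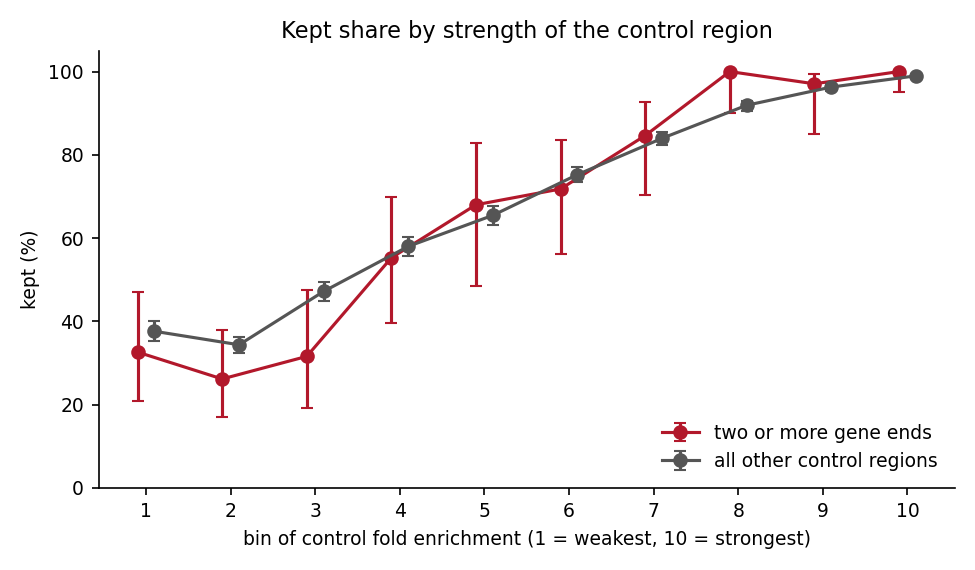
Percent of control regions kept (vertical axis) in 10 bins of control fold enrichment, for regions where gene ends meet (red) and all other control regions (grey), with Wilson 95% intervals. The bins hold about equal numbers of all control regions and differ in width. Both series climb with strength, from 32.6% and 37.6% in the weakest bin to 100% and 98.97% in the strongest.

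Tail-to-tail regions were kept more often than the other arrangements at the deposited thresholds. Of 51 tail-to-tail regions 45 were kept (88.2%, interval 76.6 to 94.5). Of 149 head-to-head regions 93 were kept (62.4%, interval 54.4 to 69.8), and of 109 head-to-tail regions 69 (63.3%, interval 53.9 to 71.8). The tail-to-tail share exceeded the head-to-head share by 25.8 points (interval 12.1 to 35.97), and by 15.7 points at the same control fold enrichment. Tail-to-tail regions had a median control fold enrichment of 8.09, against 6.63 for head-to-head regions. The order depended on the threshold. With a −log10 q of at least 5 in both lists 29 of 41 tail-to-tail and 77 of 99 head-to-head regions were kept, a difference of -7.05 points (-23.8 to 7.77). With a fold enrichment of at least 5 in both lists the difference was 1.26 points (-14.95 to 15.2). With the −log10 q limit on the control list alone, 39 of 41 and 82 of 99 were kept, a difference of 12.3 points (-0.544 to 21.6).

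At single genes the end was kept more often than the start. Regions at the end of 1 gene were kept in 405 of 552 cases (73.4%, interval 69.5 to 76.9) and those at the start of 1 gene in 1118 of 1841 (60.7%, interval 58.5 to 62.9), a difference of 12.6 points (8.21 to 16.8). This difference was 4.87 points (-0.109 to 9.55) with the −log10 q limit in both lists. The tail-to-tail share lay 14.9 points above that of single ends (2.73 to 22.2), but 3.45 points below it with that limit (a difference of -3.45, interval -19.2 to 8.99). The head-to-head share lay 1.69 points above that of single starts (-6.61 to 9.40). The 126 regions without a class were kept in 80 cases (63.5%).

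**Figure D4:**
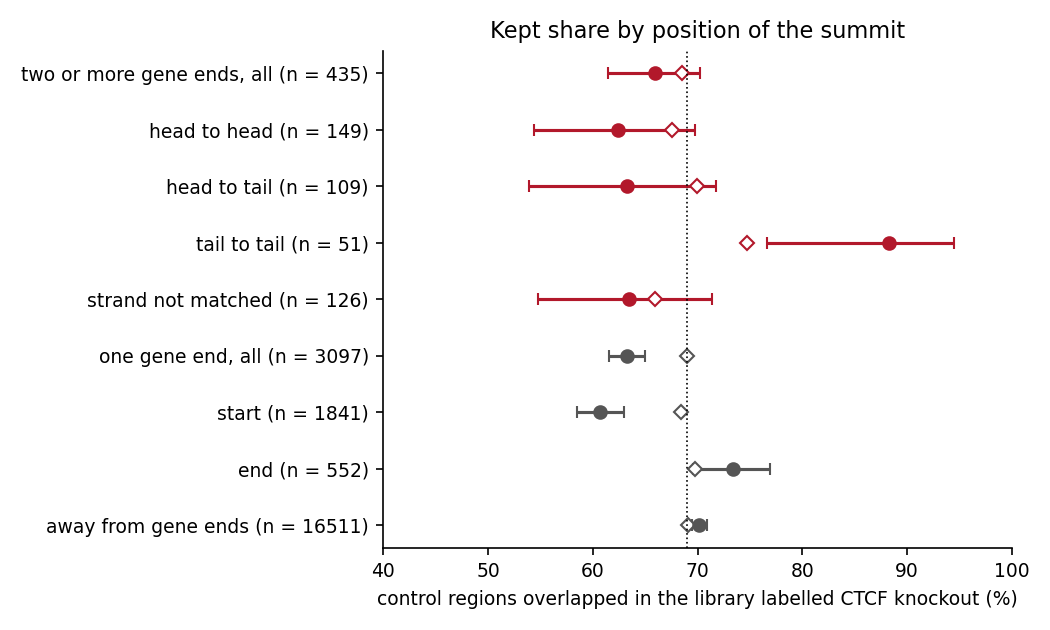
Percent of control regions that were kept (horizontal axis, starting at 40%), with Wilson 95% intervals, by position of the summit. Open diamonds give the share expected at the same fold enrichment from all control regions except those where gene ends meet. For rows at one gene end and away from gene ends, that set includes the row's own regions. The dotted line marks all control regions (69.0%). Tail-to-tail regions stand at 88.2%, to the right of their diamond, and the other arrangements at 62.4% to 63.5%.

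Among head-to-head regions the strongest lay at Zfp398 and Zfp786, which overlap and both encode zinc-finger proteins (chromosome 6, 47835442 to 47835826), with a fold enrichment of 26.3 and a pileup of 60 reads in the control and 18.9 and 34 reads in the other library. The region between Exosc8, a subunit gene of the RNA exosome, and Alg5, a glucosyltransferase gene of N-glycosylation (chromosome 3, 54734985 to 54735526), had 19.8 (50 reads) and 19.3 (37 reads). The region at Ndufaf3, an assembly factor gene of respiratory complex I, and Dalrd3 (chromosome 9, 108566823 to 108567114) had 19.6 and 13.2. These regions were called in both libraries. Uchl5, which encodes a deubiquitinase of the proteasome, and Ro60, which encodes an RNA-binding protein, shared a region with 18.6 and 11.7 (chromosome 1, 143777058 to 143777469). The region at Pfn4, a profilin gene, and Fam228b had 18.1 and 10.4.

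Lost head-to-head regions were weaker. The strongest lay at Ctsa, which encodes the lysosomal enzyme cathepsin A, and Neurl2 (chromosome 2, 164832537 to 164833073), where the control fold enrichment was 8.76 and the pileup 17 reads. The next lay between Pcid2 and Cul4a, the latter a scaffold gene of ubiquitin ligases (chromosome 8, 13105297 to 13105566; 8.47, 16 reads). The region between Aldh5a1, which encodes a mitochondrial dehydrogenase of GABA breakdown, and Gpld1 had 8.17 (18 reads). All 56 lost head-to-head regions lay between 3.45 and 8.76, and 51 of the 93 kept ones were above that range.

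The strongest head-to-tail region was also the strongest of all. It lay beside the start of Adprhl2, which encodes a hydrolase that removes ADP-ribose from proteins, and the end of Tekt2, a tektin gene of cilia and flagella (chromosome 4, 126321500 to 126321980). Its fold enrichment was 36.8 with 74 reads in the control and 25.1 with 57 reads in the other library. Next came the region at Steap1 and Gm46900, which overlap on opposite strands (18.99 and 10.8). The region at Pgls, an enzyme gene of the pentose phosphate pathway, and Niban3 had 18.99 and 12.5. The strongest lost ones lay at Fbxl22 and Usp3 (8.76, 17 reads), at Lin7b and Ppfia3 (8.44, 23 reads) and between Jund, a gene of the AP-1 transcription factor, and Iqcn (7.40, 17 reads).

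Among tail-to-tail regions the strongest lay between Rdh5, a retinol dehydrogenase gene, and Cd63, a tetraspanin gene (chromosome 10, 128913216 to 128913680), with 17.9 and 35 reads in the control and 13.7 and 38 reads in the other library. Regions at the ends of Treh and Phldb1 had 14.2 and 14.1, and those at Ndst2 and Zswim8 had 12.7 and 4.93. The 6 lost regions had control fold enrichments from 3.87 to 6.04 and pileups from 9 to 13 reads, and 37 of the 45 kept ones were above that range. The strongest lost one lay between Coq10a and Cs, the citrate synthase gene (chromosome 10, 128362742 to 128362933; 6.04, 13 reads). The others included regions at Gm20604 and Moap1 (5.98) and at Phox2a and Inppl1 (5.48). At 5 of the 51 the nearest pair of genes lay on the same strand with a shared or nearly shared end, as for Gdf1 and Cers1. Without them 41 of 46 were kept.

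**Figure D5:**
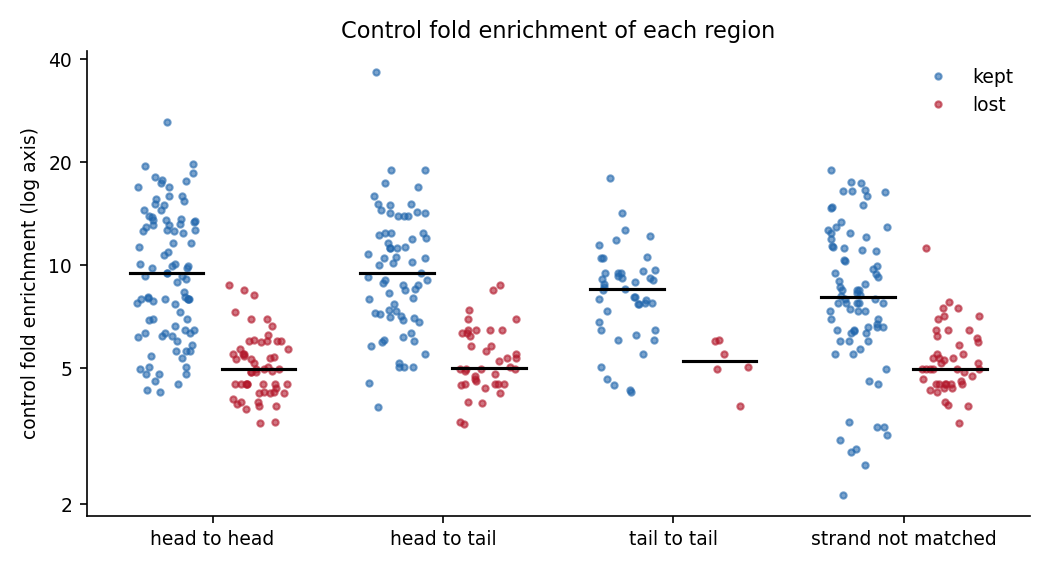
Control fold enrichment (vertical log axis) of each control region where gene ends meet, by arrangement, kept (blue) and lost (red), with the median as a black line. Lost tail-to-tail regions number 6 and lie between 3.87 and 6.04, and the lost regions of every class lie at or below 11.2.

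Among regions without a matched strand, those near Rpl36, a ribosomal protein gene, and Lonp1, which encodes a mitochondrial protease (19.03 and 23.1), at Mtdh and Gm41291 (17.5 and 7.02), and at Pitx3 and Elovl3 (17.4 and 13.7) were the strongest kept ones. Lost regions of this class included those at Erp29 and Tmem116 (7.79) and at Rin1 and Brms1 (7.48). The class also held all 8 regions on the mitochondrial chromosome, whose genes abut each other. There the local background was 71.7 reads in the control, fold enrichments ran only from 2.13 to 3.37, and all 8 were kept. Leaving them out changed the kept share to 65.3%.

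Most regions, 425 of 435, had exactly 2 genes within 1 kb. One region at the shared end of the clustered gamma protocadherins, adhesion genes that have a common last part (chromosome 18, 37841403 to 37841543), had 24, and was called in both libraries with fold enrichments of 5.48 and 5.17. Those with 3 genes included regions at Gdf1, Cers1 and Upf1 (11.5 and 5.94), at Tnfsf13, Tnfsfm13 and Senp3 (8.66 and 9.79), and at Bysl, Gm20517 and Med20 (9.14 and 6.86). These were kept, and those at 1110065P20Rik, Yrdc and Mtf1 (5.98) and at Adam15, Dcst1 and Dcst2 (3.99) were lost.

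In the reverse direction, 39 of the 328 regions of the library labelled knockout overlapped no control region (11.9%, interval 8.82 to 15.8), against 14.2% of all regions in that list. Median fold enrichment was 7.56 where a control region overlapped and 5.05 where none did. By arrangement, 12 of 101 head-to-head, 6 of 76 head-to-tail and 4 of 49 tail-to-tail regions were unshared. The strongest unshared region lay between Duoxa2 and Duoxa1, maturation factor genes of the dual oxidases (chromosome 2, 122303006 to 122303277), with 8.64 and 15 reads. A second region, inside the end of Duoxa2, was called in both libraries, with 7.71 in the control and 14.6 in the other. The next unshared regions lay at Pign and Relch (6.83), Ydjc and Ccdc116 (6.34), Chrm4 and Mdk (5.98), and Copg2 and Tsga13 (5.94).

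The genes of 7 short lists had no control region where gene ends meet. None of the 142 genes in the lists of the sarcomere, calcium handling and ion channels, fatty acid and glucose metabolism, cardiac transcription factors, stress and fetal genes, CTCF and cohesin, or markers of fibroblasts, endothelium and immune cells had one. Of all 21900 protein-coding genes, 807 (3.68%) did. These 7 lists were grouped because none of their genes did. Their count was therefore fixed by the grouping and was not compared with that share. For the 24 sarcomere genes, 2 control regions lay within 1 kb of an end, and for the 24 genes of calcium handling and ion channels 5 did. Over all 21900 protein-coding genes, 3097 control regions lay at a single gene end and 435 where ends meet. The list counts were not tested against these. Other muscle genes were picked after their values were seen, so they give no kept share for muscle genes. They did have such regions. Those at Sgcb, a sarcoglycan gene, and Lrrc66 (12.5 and 7.76), at Ankrd2, a muscle ankyrin repeat gene, and Ubtd1 (11.2 and 10.6), and at Sbk2 and Sbk3 (10.2 and 5.68) were kept.

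The other 8 lists, set apart by the same outcome and including a list of textbook paired genes, had 20 of their 219 genes at these regions (9.13%). Of 5 regions at genes of the respiration list 2 were kept, against 69.0% of all control regions. Cutc and Cox15, whose product makes the heme of cytochrome c oxidase, had one kept region (9.32 and 9.19) and one lost (6.98), and the region of Baz2a and Atp5b, an ATP synthase subunit gene, was kept (7.71 and 7.78). Lost were regions at Tssk6 and Ndufa13 (6.63) and at Ndufa13 and Yjefn3 (5.78), Ndufa13 being a complex I subunit gene.

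Regions at 3 genes of the mitochondrial ribosome and import list were kept, at Wdfy1 and Mrpl44 (9.25 and 4.66), Apoe and Tomm40 (9.06 and 8.36), and Mrpl34 and Abhd8 (6.20 and 6.34). The lists do not hold every gene of these kinds, and regions at others were also seen. Those named next were chosen with their values known and give no kept share. Regions at Mrps16 and Cfap70 (15.1 and 14.6), Atp5d and Midn (11.96 and 9.26) and Kin and Atp5c1 (4.82 and 6.34) were kept, and the region at Mrps5 and Zfp661 was lost (7.30). Of the textbook paired genes, Sars2, a mitochondrial seryl-tRNA synthetase gene, and Mrps12 shared a kept region (7.72 and 7.04). The region of Pold1, a DNA polymerase delta gene, and Nr1h2 was kept (11.7 and 6.69). Of the histone methyltransferase genes, Kmt2b with Zbtb32 had a kept region (12.1 and 10.9) and Kmt2d with Prkag1 a lost one (6.48). At Polr2h, an RNA polymerase subunit gene, and Clcn2 one region was kept (7.98 and 4.66) and a second lost (4.87). The regions at the histone genes H2ac18/H3c14 and H3c2/H2ac4 were lost, with fold enrichments of 5.61 and 5.04, and so was the region at Gapdh and Iffo1 (6.48). With so few regions per list these counts are a description.

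The limit of 1 kb divides regions that resemble each other. Just inside it, the second gene end lay 990 bp away at Tssk6/Ndufa13, 989 bp at Zfp53/Zfp52 (5.04, kept) and 988 bp at Hdlbp/Septin2 (4.49, lost). Just outside, it lay 1003 bp away at Mylpf/Septin1 (7.46, kept), 1005 bp at Dennd4b/Crtc2 (18.01, kept) and 1007 bp at Nbr1/Brca1 (3.87, lost).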

How the data were processed

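CTCF ChIP-seq of 2 libraries was used, 1 per genotype, each from 3 pooled hearts. The 2 input samples were not analysed here. The submitters' processing notes name MACS2, SAMtools 0.1.19, Bowtie2 2.2.6 and the build mm10, and the MACS2 version and threshold are not given there. The deposited peak lists, 1 per library, hold for each region a score, the authors' fold enrichment (ratio of summit signal to local background), −log10 p, −log10 q and a summit offset.

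All regions were used as deposited. Summits were converted to 1-based positions and measured against RefSeq GRCm38.p6 spans of 21900 protein-coding genes, predicted ones included. Strand came from the RefSeq promoter table, which matched 17492 of them. The pileup is the whole number for which (pileup + 1) / (background + 1) and the upper Poisson tail give the deposited fold enrichment and, within 0.001, the −log10 p, as MACS2 computes them. Shares have Wilson and differences Newcombe 95% intervals. Comparison at the same strength used 10 bins of control fold enrichment. Densities came from positions every 10 bp up to the last gene of each chromosome. The regions, arrangement classes and gene lists were chosen with earlier results of these data known. Named regions are the strongest 10 kept, 10 lost and 5 unshared, 3 kept and 3 lost per arrangement, those with the most genes, up to 4 per gene list and 3 on each side of the 1 kb limit; all 373 listed symbols, some of them synonyms of one gene, were matched. Some of these are not reported here. Functions were tested on simulated data. Software was Python 3.11.15 with scipy 1.17.1, pandas 2.3.3, numpy 2.4.6 and, for plots, matplotlib 3.10.9.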

Additional observations from a re-analysis of the deposited data

How the results depend on the processing

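No paired analysis was possible because there was 1 library per genotype. The settings at the same pileup, without the mitochondrial chromosome, on opposite strands and with the limit on the control list alone, those for differences among arrangements and single ends, and those for density and the motif were chosen after seeing the data. With windows of 500 bp and 2 kb the control held 225 and 839 regions where ends meet, and the other list 166 and 641. The kept share of 65.98% became 72.6% at −log10 q limits of 5 in both lists, 84.04% with that limit on the control alone, 56.1% with a reciprocal overlap of 50%, 61.4% with summits within 100 bp and 81.3% with lists of equal length. The unshared share of 11.9% was 24.7%, 18.3% and 18.3% under the last 3. The difference from regions away from gene ends turned to 0.624, 2.98 and 2.43 points with the −log10 q limit on both lists, on the control alone, and equal lengths. With the −log10 q limit the kept shares were 77.8% head to head, 71.8% head to tail and 70.7% tail to tail. With reciprocal overlap they were 50.3% head to head and 54.8% without a matched strand. The tail-to-tail minus head-to-head difference was -7.05 points with the −log10 q limit, 1.26 when fold enrichment had to reach 5, and 11.9 with equal lengths. Tail-to-tail minus single ends was -3.45 and -0.317 points under the former 2. Single ends minus single starts was 4.87, 6.04 and 6.42 points under those 3, and 4.07 with the limit on the control alone. The cause was not tested. Of 81 recomputed values 52 stayed within counting error.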
